A study of Mus musculus with 32 samples.

Results

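The Period genes Per1, Per2 and Per3 were examined in RNA of mouse photoreceptors, the rods and cones of the retina. They were chosen by name and are 3 of the 54232 genes counted, and all 3 were among the 17871 genes with enough reads to test. The photoreceptors had been cut from snap-frozen eyes by laser capture microdissection, and each group held 4 libraries. The KO groups carried Per1-/-Per2Brdm1 and were sampled at CT19, CT22, CT1 and CT10, where CT is circadian time. The WT groups were wild type and were sampled at the same times. All animals of both genotypes were males of 6 weeks on a C57BL/6/J x 129 SvEvBrd background. The study asked how Per1 and Per2 bear on the daily rhythm with which the pigment epithelium engulfs shed photoreceptor tips.

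Period genes encode repressors of the circadian clock. The activators CLOCK and BMAL1 (gene Arntl) bind E-box sequences and switch the Period and Cryptochrome genes on, and the PER and CRY proteins return to the nucleus and inhibit those activators. Casein kinases phosphorylate PER proteins and F-box proteins direct their breakdown, which sets the pace of the loop. PAR-bZIP factors such as DBP act through D-box sequences, and CREB acts through cAMP response elements (CRE), at which light and cAMP signals induce Per1 and Per2 in the brain's clock. Per3 is known for a smaller part in the core loop.

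The KO label names Per1 and Per2 but leaves Per3 intact. Per2Brdm1 lacks part of the PAS domain, through which PER proteins bind each other. The labels name no driver that would restrict either allele to photoreceptors. Counts were summed over whole genes, so they hold reads of exons outside any deleted part and check nothing about the deletions. A count of Per1 or Per2 in KO is therefore a count of transcript from the mutant locus, not of intact message.

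Positions are given on the mouse build GRCm38. Per1 (ENSMUSG00000020893) lies on the plus strand at chr11:69095217-69109960, with 6 annotated transcripts and exons covering 5631 bases. Per2 (ENSMUSG00000055866) lies on the minus strand at chr1:91415982-91459324, with 2 transcripts and 5856 exon bases. Per3 (ENSMUSG00000028957) lies on the minus strand at chr4:151003652-151044665, with 5 transcripts and 9608 exon bases. None of the 3 shares exon bases with another annotated gene.

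The promoter sequences below show which clock motifs stand just before the starts of Per1 and Per3, the 2 members with a RefSeq promoter entry (GRCm38.p6). Each runs over the 250 bases before a start, 5′ to 3′ on the gene's strand. Capitals mark an E-box (CACGTG), a D-box (TTATGNAA) or the CRE core (TGACG). The windows are chr11:69098699-69098948 (plus strand) and chr11:69099902-69100151 (plus strand) for 2 Per1 starts, and chr4:151044666-151044915 (minus strand) for Per3.
Per1, first start: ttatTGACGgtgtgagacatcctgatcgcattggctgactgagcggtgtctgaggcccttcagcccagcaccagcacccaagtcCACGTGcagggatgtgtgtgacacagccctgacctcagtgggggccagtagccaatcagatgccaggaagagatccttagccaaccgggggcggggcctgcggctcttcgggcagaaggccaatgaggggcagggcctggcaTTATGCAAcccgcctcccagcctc
Per1, second start: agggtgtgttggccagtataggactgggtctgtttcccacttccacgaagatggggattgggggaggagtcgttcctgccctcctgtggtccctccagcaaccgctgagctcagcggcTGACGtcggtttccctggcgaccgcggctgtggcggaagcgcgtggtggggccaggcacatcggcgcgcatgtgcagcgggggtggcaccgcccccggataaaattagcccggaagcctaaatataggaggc
Per3: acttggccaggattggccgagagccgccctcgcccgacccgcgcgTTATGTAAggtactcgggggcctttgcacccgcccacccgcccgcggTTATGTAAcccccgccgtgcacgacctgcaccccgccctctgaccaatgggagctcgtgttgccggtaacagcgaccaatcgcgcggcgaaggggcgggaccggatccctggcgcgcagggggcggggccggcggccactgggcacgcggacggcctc
The first Per1 window held an E-box at -166, a D-box (TTATGCAA) at -24 and a CRE core at -246, counted from the start. The second Per1 window held a CRE core at -132 and neither of the other motifs. Per3 held 2 D-boxes (TTATGTAA), at -205 and -158. On both strands, CACGTG occurred in 6.02% of 32851 RefSeq windows of the same length, TTATGNAA in 3.07% (at least 2 copies in 0.128%) and TGACG in 17.8%. The full CRE (TGACGTCA, in 1.55% of windows, which contains the CRE core) and the variant E-box CACGTT (in 3.85%) were not in these letters. A match describes the sequence and was not tested for binding.

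Totals ran from 23833604 to 34582742 counts per library. Levels are given in CPM (counts relative to library size, here scaled by TMM). By the totals alone, before that scaling, 1 CPM rested on about 23.8 counts or more. In single libraries Per1 had 2299 to 8753 reads, Per2 492 to 7231 and Per3 2251 to 13329. Rod markers, 8 genes led by rhodopsin, summed to 77700 to 113000 CPM in KO libraries and 83200 to 136000 CPM in WT libraries, the highest sum of any list of cell markers. Of the rod markers 1 was called higher in KO and 2 lower, and of 7 cone markers 0 were higher and 3 lower (1580 to 2770 CPM in KO libraries, 2000 to 3180 CPM in WT libraries), beside 9.88% of all tested genes higher and 6.4% lower. RNA of other cells was present too. Of 12 bipolar markers, 9 were called higher in KO and none lower, with summed levels of 849 to 1300 CPM in KO libraries and 749 to 1150 CPM in WT libraries. Of 10 Muller glia markers, 6 were called higher and none lower (628 to 1370 CPM in KO libraries, 370 to 1040 CPM in WT libraries). Of 9 amacrine markers, 4 were called higher and none lower. The inner retina level, the mean log2 CPM of bipolar, amacrine and Muller markers, was 4.92, 4.81, 4.45 and 4.74 in KO at CT19, CT22, CT1 and CT10, against 4.43, 4.69, 4.22 and 3.72 in WT. It was higher in KO at every time, so as a covariate it is not independent of genotype. Lens markers summed to 213 to 6400 CPM in KO libraries and 74.8 to 10500 CPM in WT libraries, with the highest group means in WT at CT1 and CT10. In such bulk samples, fewer cells of a type and less RNA per cell cannot be told apart.

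All 3 Period transcripts were higher in KO than in WT at every time. Averaged over time, Per2 rose 6.59-fold, Per3 2.39-fold and Per1 1.77-fold (edgeR's quasi-likelihood test, adjusted p at most 1.17e-09). None of the 16 KO libraries overlapped with the 16 WT libraries for any of them. Per3, the member whose own locus the genotype does not name, rose too.

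Per2 showed the widest gap. At CT19 it stood at 171, 212, 178 and 185 CPM in KO libraries, against 34.2, 37.6, 34.7 and 38.3 CPM in WT libraries. At CT22 the KO libraries had 212, 168, 186 and 267 CPM of Per2, and the WT libraries 33.4, 31.4, 33.9 and 41.5 CPM. Every KO library thus held several times the Per2 level of any WT library during the subjective night. At CT1 Per2 stood at 204, 206, 169 and 206 CPM in KO libraries, against 27.8, 24.9, 44.3 and 25.4 CPM in WT libraries. At CT10 the KO libraries had 207, 184, 207 and 210 CPM, and the WT libraries 28.4, 15.2, 25.3 and 15.4 CPM. WT libraries fell into a high and a low pair at CT10, while the KO libraries lay close together. Across all times Per2 averaged 198 ± 24.5 CPM in KO (168 to 267) and 30.7 ± 8.3 CPM in WT (15.2 to 44.3; SD, n = 16 each).

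Per3 was next. At CT19 it stood at 316, 305, 275 and 402 CPM in KO libraries, against 143, 146, 191 and 161 CPM in WT libraries. At CT22 the KO libraries had 339, 315, 332 and 473 CPM of Per3, and the WT libraries 125, 157, 172 and 133 CPM. The groups did not overlap at either time, and 1 KO library at CT22 stood well above its 3 companions. At CT1 Per3 stood at 374, 388, 426 and 354 CPM in KO libraries, against 99.2, 127, 202 and 96.7 CPM in WT libraries. At CT10 the KO libraries had 361, 335, 331 and 291 CPM, and the WT libraries 145, 131, 173 and 145 CPM. Across all times Per3 averaged 351 ± 51.8 CPM in KO (275 to 473) and 147 ± 29.2 CPM in WT (96.7 to 202).

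Per1 differed least. At CT19 it stood at 170, 223, 209 and 284 CPM in KO libraries, against 141, 135, 131 and 118 CPM in WT libraries. At CT22 the KO libraries had 201, 170, 215 and 323 CPM of Per1, and the WT libraries 112, 129, 146 and 139 CPM. The 2 night groups of KO were the most scattered, and their lowest libraries, at 170 CPM, came closest to WT, whose highest night library had 146 CPM. At CT1 Per1 stood at 184, 208, 195 and 198 CPM in KO libraries, against 94.4, 101, 143 and 98.8 CPM in WT libraries. At CT10 the KO libraries had 203, 181, 174 and 195 CPM, and the WT libraries 101, 104, 96.5 and 105 CPM. Across all times Per1 averaged 208 ± 41 CPM in KO (170 to 323) and 118 ± 18.7 CPM in WT (94.4 to 146).

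**Figure D1:**
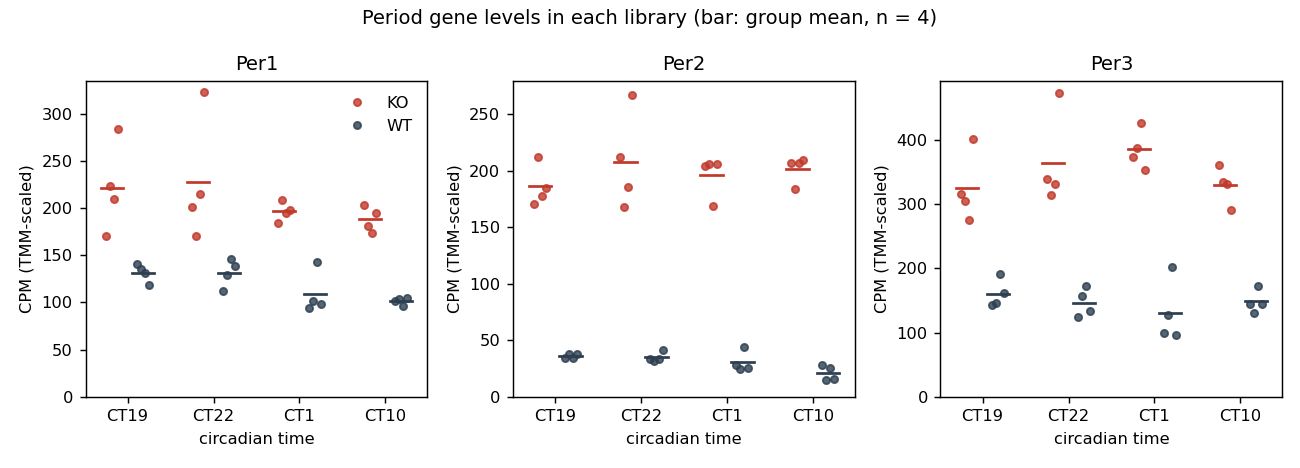
TMM-scaled CPM (linear axis from 0) of Per1, Per2 and Per3 in each library by circadian time, KO left of WT at each time, with bars at the group means (n = 4). Every KO point lies above every WT point in each panel, with Per2 at 168 to 267 CPM in KO and 15.2 to 44.3 CPM in WT.

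Ordered by group mean, the 4 KO groups stood above the 4 WT groups for each gene. Within KO the order was CT22, CT19, CT1 and CT10 for Per1 (227, 221, 196 and 188 CPM), CT22, CT10, CT1 and CT19 for Per2 (208, 202, 196 and 187 CPM) and CT1, CT22, CT10 and CT19 for Per3 (386, 365, 330 and 324 CPM). Within WT it was CT19, CT22, CT1 and CT10 for both Per1 (131, 131, 109 and 102 CPM) and Per2 (36.2, 35.1, 30.6 and 21.1 CPM), and CT19, CT10, CT22 and CT1 for Per3 (160, 149, 147 and 131 CPM). Neighbouring groups of the same genotype overlapped in their libraries in every case. Their means differed by less than the larger SD of the pair, except Per2 in WT at CT10 (21.1 ± 6.79 CPM) and CT1 (30.6 ± 9.22 CPM). The gap between the lowest KO group and the highest WT group was the single place in each order where libraries did not overlap.

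The genotype difference was tested with the 4 times averaged and for every time alone. A gene is called here when its adjusted p is under 0.05 (edgeR's quasi-likelihood test, Benjamini-Hochberg over the 17871 tested genes). With the times averaged all 3 members were called higher in KO, where 16.3% of tested genes were called, 9.88% higher and 6.4% lower. Per2 was higher by 2.72 on the log2 scale (SE 0.09, adjusted p = 2.58e-19), Per3 by 1.26 (SE 0.09, adjusted p = 3.79e-12) and Per1 by 0.82 (SE 0.07, adjusted p = 1.17e-09). By p-value Per2 ranked 6, Per3 39 and Per1 73 among all tested genes. By fold among the genes called higher they ranked 9, 70 and 282. With the inner retina level as a covariate the differences were 2.74 for Per2, 1.47 for Per3 and 0.98 for Per1, so they were as large as without it.

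At single times the 3 members were called higher at CT19, CT22, CT1 and CT10 alike, where 2.89%, 0.901%, 1.06% and 7.2% of tested genes were called higher. Only 69 genes, 0.386% of those tested, were called higher at all 4 times, and 65 genes, 0.364%, had all 16 KO libraries above all 16 WT libraries. All 3 Period genes were in both counts. The log2 difference of Per2 was 2.37 (SE 0.18) at CT19, 2.57 (SE 0.18) at CT22, 2.68 (SE 0.18) at CT1 and 3.26 (SE 0.19) at CT10. That of Per3 was 1.02, 1.31, 1.56 and 1.15 (SE 0.17 each), and that of Per1 0.76, 0.79, 0.84 and 0.89 (SE 0.15 each). The highest adjusted p of these 12 tests by edgeR's quasi-likelihood test was 0.00218, for Per1 at CT19. When the fit held only the libraries of CT22, Per1 at that time kept its size (0.80) but not its call (adjusted p = 0.096).

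**Figure D2:**
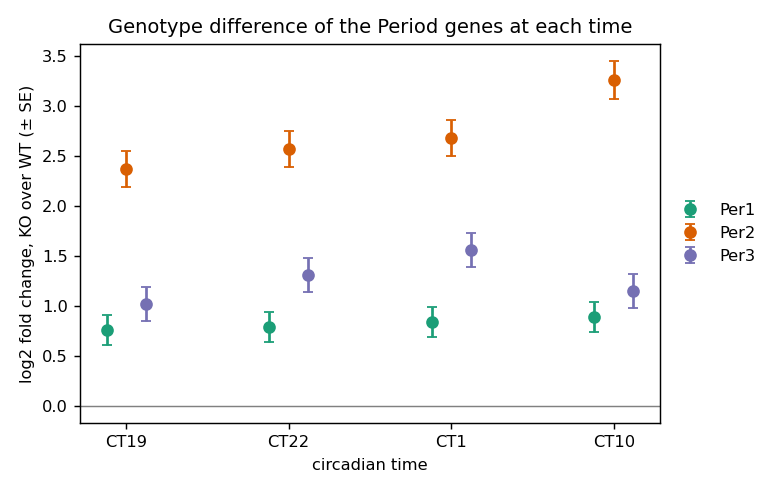
Log2 fold change of KO over WT (linear axis, points with ± SE from the edgeR fit) for Per1, Per2 and Per3 at each circadian time, with 4 KO and 4 WT libraries a time. Per2 lies highest at every time, at 2.37 to 3.26, Per3 lies at 1.02 to 1.56 and Per1 at 0.76 to 0.89.

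Whether the Period genes varied with time was asked within each genotype. In KO none of the 3 was called for any difference among the 4 times, and 1 gene (0.0056% of those tested) was called by edgeR. DESeq2 called 183 genes, leaving out 1 library gave 0 to 29 with edgeR, and 1862 genes had an unadjusted p under 0.05. The group means of KO spanned 0.27 on the log2 scale for Per1 (adjusted p = 0.713), 0.16 for Per2 (adjusted p = 0.966) and 0.25 for Per3 (adjusted p = 0.835). In WT, where 14.6% of tested genes were called, Per2 was the called member, with a span of 0.78 (adjusted p = 0.00997). Per1 spanned 0.37 in WT (adjusted p = 0.143) and Per3 0.29 (adjusted p = 0.611). Per1 was called in WT with the inner retina level as a covariate (0.71, adjusted p = 0.0403). The Per2 call was lost with the inner retina level as a covariate (span 0.82, adjusted p = 0.0809) and without the WT CT10 library of replicate 2 (0.65, adjusted p = 0.0726) or replicate 5 (0.66, adjusted p = 0.0585). These are the low pair at CT10, and their inner retina levels were 3.32 and 3.87, against 4.13 and 3.57 in the other WT libraries of that time. By the titles, the WT CT10 library of replicate 5 came from a right eye and every other library from a left eye. A difference between eyes was not tested.

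The WT library of replicate 4 at CT1 bore on the other members. It was the highest of its group for all 3, at 143 CPM of Per1, 44.3 CPM of Per2 and 202 CPM of Per3, and had the lowest inner retina level of that group (3.92). Without it, Per1 in WT was called for time (0.42, adjusted p = 0.0364) and so was Per3 (0.58, adjusted p = 0.0275). For each of these 2 genes this was the 1 fit of the 32 leaving out a library that gave the call. With all libraries, WT at CT1 had 96.7 to 202 CPM of Per3 and overlapped with WT at CT10 (131 to 173 CPM). The library is singled out here for its high Period levels, so these 2 calls describe only its influence.

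CT10, late in the subjective day, was then set against the mean of CT19 and CT22, the subjective night. In WT, 22.9% of tested genes were called in this contrast, 11.6% higher and 11.3% lower at CT10. Per2 was lower at CT10 by a log2 difference of -0.76 (SE 0.16, adjusted p = 9.67e-04), and Per1 by -0.37 (SE 0.13, adjusted p = 0.0385). Per3 differed by -0.05 (SE 0.15, adjusted p = 0.86). The Per2 call held in all 32 fits that left out a library (-0.94 to -0.62) and with the inner retina covariate (-0.80, adjusted p = 0.0159). It was lost with the inner retina and lens levels together (-0.72, adjusted p = 0.127). The Per1 call was lost in 9 of the 32, those without replicate 1 or 2 of WT at CT19, replicate 2, 3 or 6 at CT22, or any 1 library of WT at CT10 (adjusted p up to 0.101), with the lens covariate (-0.30, adjusted p = 0.205) and with both covariates, where the difference was larger (-0.64, adjusted p = 0.0715). Lens levels in WT averaged 7.36 at CT10, against 4.07 at CT19 and 4.85 at CT22 (mean log2 CPM of the markers).

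In KO the same contrast gave 0.04 for Per2 (SE 0.15, adjusted p = 0.961), -0.25 for Per1 (SE 0.13, adjusted p = 0.462) and -0.06 for Per3 (SE 0.15, adjusted p = 0.923). It called 0 genes (0% of those tested) with edgeR and 53 with DESeq2, and 2027 genes had an unadjusted p under 0.05 with edgeR. The difference between genotypes in this contrast was called for Per2, at 0.79 (SE 0.21, adjusted p = 0.0287), where 4.58% of tested genes were called and 2.04% were higher. It was 0.12 for Per1 (SE 0.18, adjusted p = 0.762) and -0.02 for Per3 (SE 0.21, adjusted p = 0.977). Per2 lost this call with the inner retina covariate (0.83, adjusted p = 0.0728), with the lens covariate (0.73, adjusted p = 0.0919) and in 7 of the 32 fits that left out a library. Those were replicate 3 of KO at CT22, replicates 2, 4 and 5 of KO at CT10, replicate 6 of WT at CT22 and replicates 2 and 5 of WT at CT10 (0.65 to 0.78, adjusted p up to 0.102). The interaction over all 4 times, which called 1.62% of tested genes, did not call Per2 with edgeR (span of the 4 differences 0.90, adjusted p = 0.14), while DESeq2 did (0.90, adjusted p = 0.0497). Neither tool called Per1 (0.13, adjusted p = 0.961) or Per3 (0.54, adjusted p = 0.465).

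The balance among the 3 transcripts was read within each library from raw counts, which needs no scaling between libraries. In read counts Per2 rose more than Per3, and Per3 more than Per1. Exons deleted from Per1 or Per2 in KO give no reads, while Per3 is intact. The ratios and this order take no account of that. The log2 ratio of Per2 to Per1 reads was -0.06 ± 0.21 in KO and -1.99 ± 0.34 in WT (SD, n = 16 each), a difference of 1.93, or a ratio 3.81-fold higher. That of Per2 to Per3 was -0.82 ± 0.21 in KO and -2.29 ± 0.44 in WT, a difference of 1.47. That of Per3 to Per1 was 0.76 ± 0.22 in KO and 0.30 ± 0.25 in WT, a difference of 0.46. A 2-sided permutation test of genotype labels within times gave p = 1e-05 for each of the 3 ratios, the smallest that 100000 permutations can give, and the same after adjustment over the 3.

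The ratios were also tested at each time by a 2-sided exact permutation test of 4 against 4, whose smallest possible p is 0.0286. Per2 to Per1 reached that p at all 4 times, with differences of 1.63, 1.80, 1.86 and 2.43 at CT19, CT22, CT1 and CT10 (adjusted p = 0.0343 over the 12 tests). Per2 to Per3 did the same, with differences of 1.35, 1.25, 1.10 and 2.17. Per3 to Per1 reached it at CT22 (0.55) and CT1 (0.76), where no KO library overlapped with a WT library. At CT19 (0.28, exact p = 0.229) and CT10 (0.26, exact p = 0.0857) the libraries of the genotypes overlapped.

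**Figure D3:**
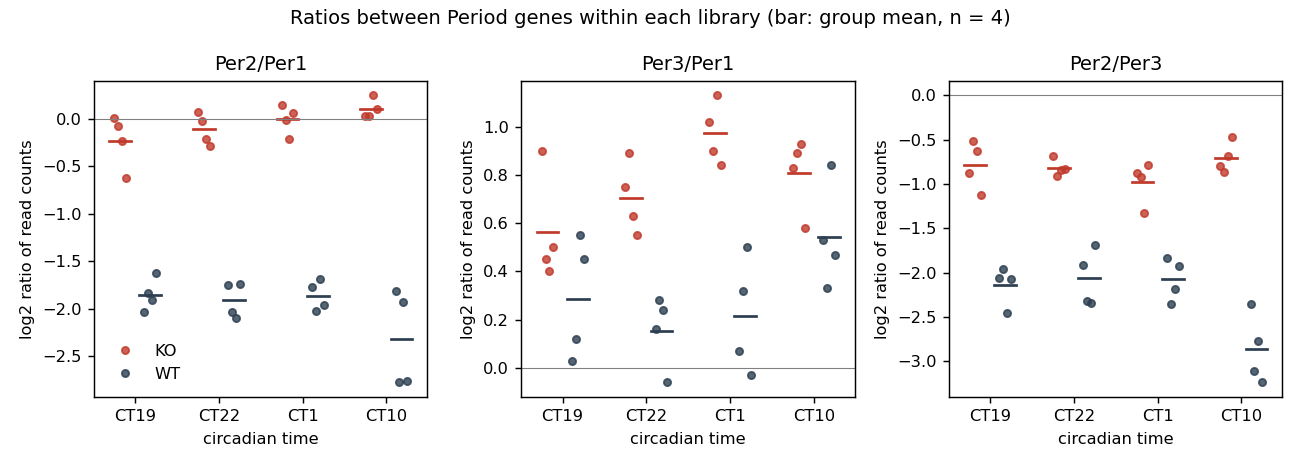
Log2 ratio of raw read counts of 2 Period genes within each library (linear axis) by circadian time, KO left of WT, with bars at the group means (n = 4). Per2 to Per1 lies between -0.62 and 0.25 in KO and between -2.78 and -1.62 in WT, and Per3 to Per1 overlaps between genotypes at CT19 and CT10.

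Levels of different genes can be set side by side per length of exon. By all annotated exon bases, the 3 were at nearly equal levels in KO, with Per1 at 37.0 ± 7.28, Per2 at 33.8 ± 4.18 and Per3 at 36.5 ± 5.39 CPM per kb of exon (SD, n = 16). The lengths are those of the annotated genes and take no account of the deletions in KO. In WT Per1 was at 21 ± 3.33, Per2 at 5.25 ± 1.42 and Per3 at 15.3 ± 3.04 CPM per kb. Summed, Period transcript stood at 107 ± 14.4 CPM per kb in KO and 41.5 ± 6.67 CPM per kb in WT. Per2 made up 31.7 ± 2.65% of that sum in KO and 12.5 ± 2.43% in WT, and Per1 34.3 ± 2.92% in KO and 50.7 ± 3.29% in WT. Per3 held 34.1 ± 2.91% in KO and 36.7 ± 4.19% in WT. Levels and shares depend on the length used. With the longest coding transcript of each gene (4671 bases for Per1, 5833 for Per2 and 5999 for Per3), Per3 led in KO with 42.7%, and Per2 had 24.9% in KO and 9.52% in WT. By that length the KO levels were no longer alike, at 44.6 CPM per kb for Per1, 34.0 for Per2 and 58.5 for Per3. In WT Per1 and Per3 were then close, at 46.2% and 44.3%.

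Other genes of the loop were read from 7 lists, which are described by their counts for KO against WT with the times averaged, beside a median of all tested genes of 0.0 on the log2 scale and 16.3% of them called (9.88% higher and 6.4% lower). The share called was 3.89% with the inner retina level as a covariate. The E-box activator and D-box lists then had the same calls, and the other lists are given below with the calls they lost. Among 4 E-box activators, 0 were higher, 1 was lower and 3 did not pass. The lower one was Arntl, which encodes BMAL1, at 94.7 ± 4.76 CPM in KO and 159 ± 7.47 CPM in WT (SD, n = 16 each, as for the genes that follow; log2 difference -0.74). Clock, its partner, stood at 158 ± 18.5 CPM in KO and 168 ± 18.3 CPM in WT and did not pass (adjusted p = 0.183).

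Among partners of PER and repressors at E-boxes, 7 of 11 were higher, 0 lower and 4 did not pass, with a median log2 difference of 0.46. With the inner retina covariate 5 were higher, as Timeless (0.41, adjusted p = 0.132) and Cipc (0.13, adjusted p = 0.104) lost their calls. Ciart, a repressor of CLOCK and BMAL1, stood at 15.6 ± 2.56 CPM in KO and 2.19 ± 0.587 CPM in WT. Cry2, which binds PER proteins, stood at 158 ± 7.97 CPM in KO and 69.4 ± 9.37 CPM in WT, and its paralog Cry1 at 89.7 ± 4.82 CPM in KO and 65.1 ± 4.63 CPM in WT. Bhlhe41, which encodes the E-box repressor DEC2, stood at 331 ± 23 CPM in KO and 187 ± 22.2 CPM in WT.

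Most of the enzymes that act on PER proteins were not called. Of 15 kinases, phosphatases and ubiquitin enzymes 1 was higher, 3 were lower and 11 did not pass, with a median of -0.06. Usp2, a deubiquitinating enzyme, stood at 319 ± 40.1 CPM in KO and 230 ± 26.1 CPM in WT. Ppp1cc, a catalytic subunit of protein phosphatase 1, was at 74.1 ± 6.81 CPM in KO and 92.9 ± 7.49 CPM in WT. The kinase gene Gsk3b changed by -0.14 and lost its call with the inner retina covariate (-0.15, adjusted p = 0.178). The PER kinase Csnk1d stood at 120 ± 5.11 CPM in KO and 127 ± 8.83 CPM in WT (adjusted p = 0.0561), and Csnk1e at 58.5 ± 3.93 CPM in KO and 56.5 ± 6.84 CPM in WT (adjusted p = 0.361).

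All 4 D-box factors were called. Activators of the D-box were higher, with Dbp at 143 ± 14.1 CPM in KO and 40.6 ± 7.42 CPM in WT, Tef at 427 ± 21.3 CPM in KO and 189 ± 12.6 CPM in WT, and Hlf at 145 ± 14.5 CPM in KO and 63.5 ± 8.17 CPM in WT. Nfil3, the repressor at the same sequence, was lower at 8.93 ± 2.31 CPM in KO and 24.7 ± 4.59 CPM in WT. The Per3 and first Per1 windows printed above hold a D-box, the second Per1 window holds none, and no Per2 window was available. Whether these factors act on the Period genes was not tested. Of 5 REV-ERB and ROR genes 3 were higher, 0 lower and 2 did not pass, and 2 were higher with the inner retina covariate. The REV-ERB repressor genes Nr1d1 and Nr1d2 stood at 291 ± 26.7 and 300 ± 26.3 CPM in KO, against 182 ± 21 and 182 ± 18.8 CPM in WT.

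Inputs to Per1 and Per2 from outside the loop were read from the last lists. Of 16 genes of the CREB pathway or induced through it 2 were higher, 2 lower and 12 did not pass, with a median of -0.03, and with the inner retina covariate 1 was called. That one was Dusp4, a phosphatase of MAP kinases, at 12.4 ± 3.44 CPM in KO and 5.70 ± 1.03 CPM in WT. Gem, a small GTPase, changed by 0.45, the coactivator gene Crtc3 by -0.15 and Fosb by -0.35, all of which lost their calls with that covariate. Of 9 heat shock and glucocorticoid genes 1 was higher, 2 were lower and 6 did not pass, with a median of -0.05. Tsc22d3, which encodes GILZ, a glucocorticoid-induced protein, stood at 29.5 ± 4.23 CPM in KO and 17.9 ± 1.88 CPM in WT. Sgk1, a glucocorticoid-induced kinase, changed by -0.36 and the chaperone gene Hsp90aa1 by -0.28. Hsp90aa1 lost its call with the inner retina covariate (-0.22, adjusted p = 0.153).

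**Figure D4:**
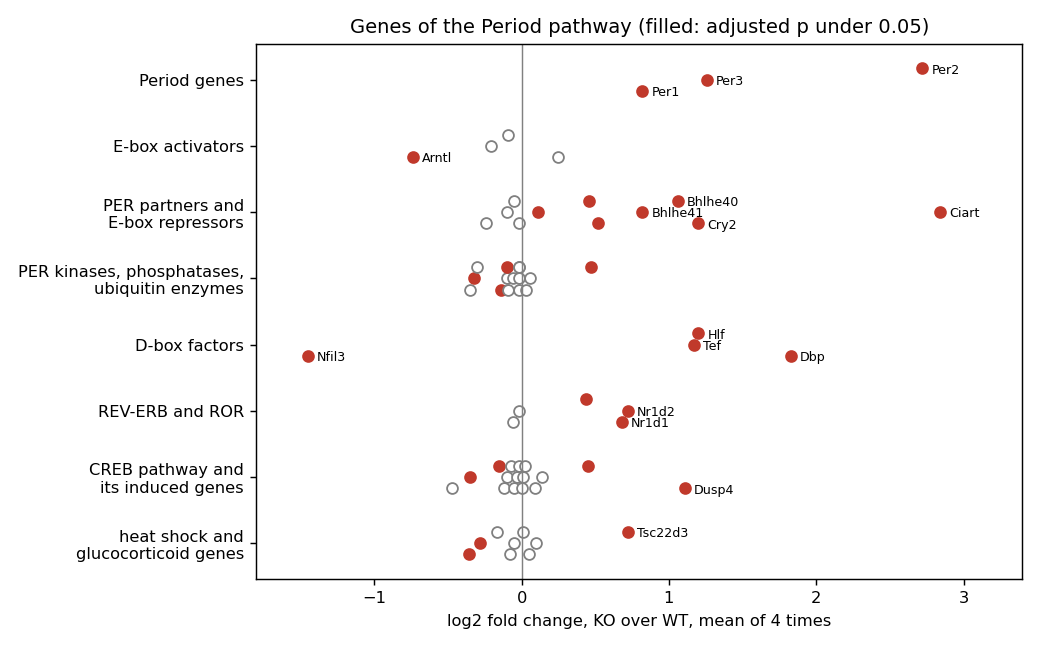
Log2 fold change of KO over WT, mean of the 4 times, for each tested gene of the Period family and the 7 lists (1 point a gene, rows spread only to keep points apart). Filled points have an adjusted p under 0.05, and Per2 at 2.72 and Ciart at 2.84 lie farthest to the right while Nfil3 at -1.45 lies farthest to the left.

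The same lists were read for CT10 against night in WT, the contrast in which Per1 and Per2 were called lower and 22.9% of tested genes were called. Inner retina levels in WT were 3.72 at CT10, against 4.43 at CT19 and 4.69 at CT22, and lens levels also differed, as given above. With the inner retina covariate 12.9% of tested genes were called, with the lens covariate 14.8% and with both 3.44%. Of the 16 CREB pathway and induced genes 5 were lower, 2 higher and 9 did not pass. The lower ones were the immediate early or signal-induced genes Nr4a1 (-2.46, SE 0.23), Fos (-1.86, SE 0.32), Sik1 (-1.85, SE 0.24), Dusp1 (-1.15, SE 0.18) and Junb (-1.04, SE 0.15). Of the 11 partners and repressors 2 were lower (Cry2 by -0.36 and Bhlhe40 by -0.82), 1 was higher (Timeless, 0.59) and 8 did not pass. Of the 15 enzymes 2 were lower (Csnk1e and Ppp1ca), 1 was higher and 12 did not pass. The D-box list had 1 higher (Dbp), 1 lower (Nfil3) and 2 that did not pass. Rorb was the 1 called gene of the REV-ERB and ROR list, lower by a log2 difference of -0.52. Heat shock and glucocorticoid genes had 1 higher (Fkbp5), 2 lower (Hspa8 and Hsp90aa1) and 6 that did not pass. Of the 4 E-box activators 0 were called by edgeR or by DESeq2, and 1 had an unadjusted p under 0.05 with edgeR. With both covariates 4 of the CREB pathway and induced genes kept their calls (Nr4a1, Sik1, Dusp1 and Junb), and Fos did not (-1.57, adjusted p = 0.101). No gene of any other list was called with both covariates, so all calls named above from those lists were lost. With the lens covariate alone, the D-box list and the heat shock and glucocorticoid list had no call left.

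Genes whose pattern over the 8 group means was most like that of each Period gene were taken by the smallest root mean square difference of centred log2 profiles, among 10609 genes. For Per1 they were the repressor gene Zhx2 (difference 0.0889 log2 units), the polo-like kinase gene Plk5 (0.0927), the spliceosome gene Snrpb (0.0931), Nr1d1 (0.0984) and Tsc22d3 (0.0989). For Per3 they were the serine protease gene Tmprss7 (0.10), Tef (0.109), the translation initiation factor gene Eif3b (0.127), Hlf (0.157) and Cry2 (0.171). The profile of Per2 had no neighbour as near: Ciart (0.314), the netrin receptor gene Unc5c (0.438), the histamine receptor gene Hrh3 (0.442), the granzyme gene Gzmm (0.454) and the Ras-like GTPase gene Rasl10b (0.494). This distance counts the size of the genotype difference, which was large for Per2, as well as the shape of the profile. In shape alone Per2 had neighbours as near as the other members did, as given under other observations. Beside the other genes named, the 5 nearest held the clock genes Nr1d1 for Per1, Ciart for Per2 and Tef, Hlf and Cry2 for Per3. The share of clock genes among the 10609 was not counted.

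The genome around the loci was read as well, since Per1 and Per2 are the mutated loci and Per3 is not. Within 1 Mb of Per1, 7 of 67 tested genes were called higher in KO and 12 lower, 28.4% in all, beside 16.3% of all tested genes. Within 1 Mb of Per2, 4 of 16 were higher and 0 lower, or 25%. Around Per3 0 of 19 were called by edgeR and 0 by DESeq2, and 2 had an unadjusted p under 0.05. Within 3 Mb the shares called were 26.1% for Per1, 14% for Per2 and 11.6% for Per3. With the inner retina covariate 4 of the 67 genes near Per1, 3 of the 16 near Per2 and 0 of the 19 near Per3 were called, beside 3.89% of all tested genes.

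Near Per1 the smallest p belonged to Acap1 (chr11:69881567-69895539, minus strand, 771.6 kb away), at 0.090 ± 0.080 CPM in KO and 0.759 ± 0.340 CPM in WT (log2 difference -3.09, SE 0.35). Chd3, a chromatin remodeller gene 233.3 kb away, stood at 52.7 ± 4.73 CPM in KO and 40.5 ± 6.13 CPM in WT, and Kctd11, 768.3 kb away, at 3.75 ± 0.783 CPM in KO and 5.60 ± 1.08 CPM in WT. All 3 were also called with the inner retina covariate. The called genes closest to Per1, named for their position after their values were seen, were the synaptic vesicle gene Vamp2, 2.8 kb away (-0.12), 9130213A22Rik, 10.1 kb away (0.89), and the HES family gene Hes7, 10.4 kb away (0.89). The last pair share 234 exon bases on opposite strands, and none of the 3 was called with that covariate. Near Per2 the called genes all lay at lower coordinates, beyond the 3′ end of the gene, as did most of the tested genes within 1 Mb. They were Erfe, the gene of the iron-regulating hormone erythroferrone, 41.8 kb away, at 0.235 ± 0.120 CPM in KO and 0.0486 ± 0.0546 CPM in WT (2.80, SE 0.38, on few reads), Klhl30, 53.6 kb away, at 3.83 ± 0.929 CPM in KO and 1.68 ± 1.57 CPM in WT, Hes6, 1.9 kb away, at 16.6 ± 1.92 CPM in KO and 12.9 ± 2.13 CPM in WT, and Lrrfip1 (0.47). When the inner retina level was a covariate, Hes6 (0.27, adjusted p = 0.0844) and Lrrfip1 (0.10, adjusted p = 0.822) lost their calls, and Traf3ip1, 35.3 kb away on the other side, was called (0.27, adjusted p = 0.00801). Whether strain-specific sequence around the mutated loci has a part in these differences was not tested.

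**Figure D5:**
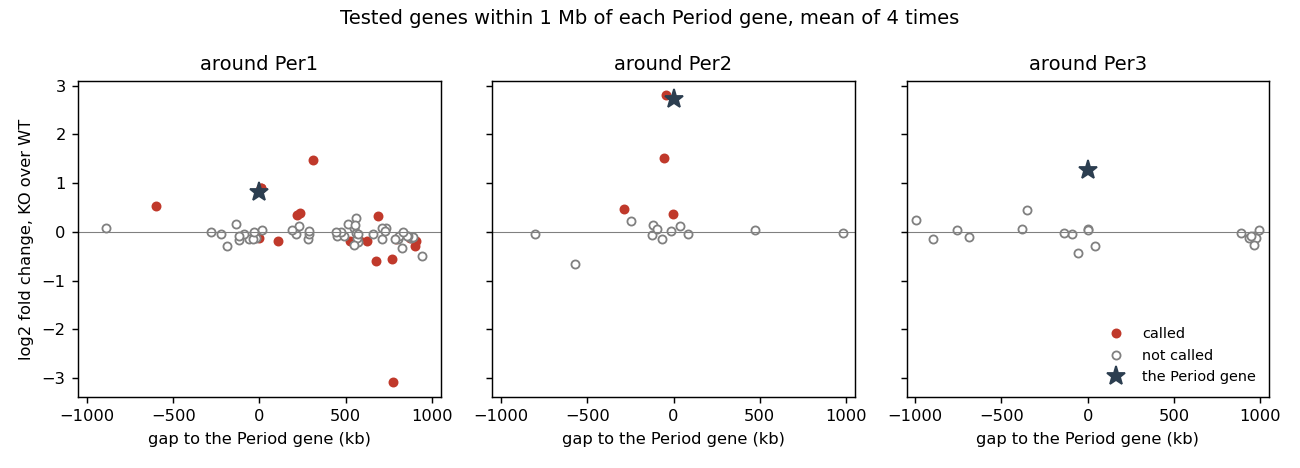
Log2 fold change of KO over WT, mean of the 4 times, for tested genes within 1 Mb of each Period gene, by the gap in kb to the Period gene (star, negative toward lower coordinates). Filled points are called, 19 around Per1, 4 around Per2 and 0 around Per3, with Acap1 at -3.09 and Erfe at 2.80 the farthest from the zero line.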

How the data were processed

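Per the labels, RNA extraction used the Qiagen RNeasy Micro kit and library preparation the KAPA mRNA HyperPrep kit. The authors deposited raw read counts per Ensembl gene. The tools named, per the submitters' processing notes, are HISAT2 2.1.0 and HTSeq 0.11 beside Trimmomatic 0.32 and Cufflinks, and the build GRCm38.p6. Which annotation release and strand setting were used, and how multiply matching reads were treated, is not given in the sources used here. Reads of overlapping genes on opposite strands may therefore be mixed. Named genes that share exon bases with a gene on the opposite strand, and are less certain for it, are 9130213A22Rik, Arntl, Bhlhe40, Bhlhe41, Coq10b, Cry2, Csnk1d, Csnk1e, Dbp, Dusp1, Erfe, Hes7, Hrh3, Jdp2, Junb, Nr1d1, Ppp1ca, Tef, Timeless, Unc5c and Usp2. Hspa8 and Smim10l1 share some with a gene on the same strand.

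Identifiers were named from the GENCODE M21 annotation of GRCm38 (99.9% matched), and 19506 genes were at 0 in all libraries. Counts were fitted in R 4.3.3 with edgeR 4.0.16 (filterByExpr with minimum count 10 and minimum total 15, TMM, 8 group means, robust quasi-likelihood, 24 residual degrees of freedom, biological coefficient of variation 0.199). The tested genes held at least 99.93% of each library's counts. Libraries were grouped by their labels, which carry animal numbers. In WT at CT1 the title of replicate 5 holds 2 animal numbers, and it was used as 1 library. The titles mark left eyes, except that of replicate 5 of WT at CT10, which marks a right eye. Replicates in the text are named by the animal number of the title, and libraries of a group are listed in that order. No 2 libraries of the same group agreed within sampling noise.

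Equal animal numbers in KO and WT were not taken as pairs. Over 12 such pairs the correlation of deviations ran from -0.101 to 0.21 (median -0.0111), with 3 pairs above 0.1. Over 52 pairs of different numbers it ran from -0.182 to 0.222 (median -0.00187), with 5 above 0.1. Alternatives were DESeq2 1.42.0, RLE scaling, other filters, blocks for the animal number and for the s number of the titles, covariates for the inner retina and lens levels, fits of only the compared groups, and leaving out each of the 32 libraries. The inner retina and lens levels together and the coding length were added after seeing the data. The procedure was tested on simulated counts. Genes beyond the Period genes were named by rule: up to 4 called genes with the smallest p in each list, the 5 nearest patterns and up to 3 called neighbours a locus, with average log2 CPM of at least 1 for patterns. Exceptions are Clock, Csnk1d and Csnk1e, named for their role, called genes named in the CT10 lists, genes that lost or gained a call with a covariate, and Vamp2, Hes7, 9130213A22Rik and Lrrfip1. Some genes that the rule names are not reported here. The members and lists were chosen with earlier results of these data known. Promoters come from RefSeq (GRCm38.p6).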

Additional observations from a re-analysis of the deposited data

Results flagged for a closer look

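Of 48 groups of 4 libraries checked for a sample far from the others (CPM and ratios of the 3 Period genes), 5 were flagged, and chance alone flags about 1 in 20 groups. In KO, Per2 was lowest at CT1 in replicate 5, at 169 CPM beside 204 to 206 CPM in the other libraries, and lowest at CT10 in replicate 3, at 184 CPM beside 207 to 210 CPM. Per3 was highest in KO at CT22 in replicate 4, at 473 CPM beside 315 to 339 CPM, and that library had the lowest inner retina level of its group (4.54). Without it Per1 at CT22 differed between genotypes by 0.58 (edgeR adjusted p = 0.0115) and Per3 by 1.17 (adjusted p = 1.07e-04).

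The WT library of replicate 4 at CT1 was flagged for Per1 (143 CPM beside 94.4 to 101 CPM) and for Per2 (44.3 CPM beside 24.9 to 27.8 CPM). Without it the genotype differences over the 4 times were 0.86 for Per1, 2.78 for Per2 and 1.33 for Per3. The part of cell makeup in these libraries was not tested.

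The change of Per2 from night to CT10 differed between genotypes by 0.79 on the log2 scale (edgeR's quasi-likelihood test, adjusted p = 0.0287), with 0.04 in KO and -0.76 in WT.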

How the results depend on the processing

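Of 42 alternatives for a single time, or 41 for the mean of the 4 times, each kept all genotype differences of the Period genes called, except Per1 at CT22 with only the compared groups (0.80, adjusted p = 0.096). Over these alternatives the log2 difference over the 4 times ran from 0.76 to 0.98 for Per1, 2.68 to 2.78 for Per2 and 1.22 to 1.47 for Per3.

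Time effects were less firm. With the inner retina covariate the WT time effect of Per1 was called (0.71, adjusted p = 0.0403). That of Per2 was lost with the inner retina (0.82, 0.0809), lens (0.71, 0.0564) or both covariates (0.74, 0.255) and with only the compared groups (0.76, 0.0765). The interaction of Per2 was called by DESeq2 (0.90, adjusted p = 0.0497). CT10 against night in WT was lost for Per1 without a filter on low counts (-0.36, 0.0957), with the lens covariate (-0.30, 0.205) and with both covariates (-0.64, 0.0715), and for Per2 with both (-0.72, 0.127). For Per3, not called, it turned to 0.07 with the lens covariate. The genotype difference in that contrast was lost for Per2 without the filter (0.78, 0.101) and with the inner retina (0.83, 0.0728), lens (0.73, 0.0919) or both covariates (0.76, 0.266). For Per3, not called, it turned to 0.32 with the inner retina covariate and 0.26 with both. The causes were not tested.

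Leaving out each library in turn gave ranges of 0.35 to 0.44 for the WT time effect of Per1, 0.65 to 0.96 for Per2 and 0.17 to 0.58 for Per3. CT10 against night in WT ran from -0.40 to -0.35 for Per1 and from -0.13 to 0.01 for Per3. In KO it ran from -0.02 to 0.10 for Per2 and from -0.11 to 0.00 for Per3. The genotype difference in it ran from 0.65 to 0.97 for Per2 and from -0.08 to 0.07 for Per3. The number of genes called over the mean of the 4 times was 2909, and 522 with both covariates to 3329 with DESeq2. It was 928 at CT19 (194 to 1505), 273 at CT22 (120 to 445), 282 at CT1 (180 to 480), 1825 at CT10 (62 to 2244) and 289 for the interaction (7 to 913).

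With the replicate block on the animal number, CT10 against night in WT was -0.77 for Per2 (adjusted p = 3.83e-04) and -0.40 for Per1 (adjusted p = 0.0343), the genotype difference in it was 0.84 for Per2 (adjusted p = 0.00851), and the block changed no call of a Period gene. The numbers were not taken to pair the libraries.

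The lowest count of a Period gene in any library was 492 reads, while Erfe and Acap1 rest on few reads. The 4 times are unevenly spaced, and no phase or amplitude was fitted.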

Other observations

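When profiles over the 8 groups were also scaled to equal spread, so that only their shape counted, the nearest to Per2 were Cry2, Hlf, Nyx, Eif3b and Rasl10b, with differences of 0.0726 to 0.143 in units of the spread. Of these 1 was among the 5 nearest to Per2 in size and shape together, and Nyx is also 1 of the bipolar markers behind the inner retina level. Cry2 and Hlf, a repressor partner of PER and a D-box activator, were thus near Per2 in shape and near Per3 in size and shape. For Per1 the nearest in shape were Zfp324, Slc19a1, Nr1d1, Coq10b and Jdp2 (1 shared), and for Per3 Tef, Tmprss7, Smim10l1, Unc5b and Epb41l3 (2 shared). Their differences were 0.133 to 0.177 for Per1 and 0.15 to 0.182 for Per3. These are descriptions over 8 group means, which share their libraries.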
